A study of Homo sapiens with 6 samples.

Results

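The 9 genes described here encode enzymes of nucleotide synthesis, namely PPAT, GART, PAICS, ATIC, CAD, RRM1, RRM2, TYMS and TK1. They were chosen by name as enzymes of the pathway, with earlier results of these data known, and they are 9 of 58735 genes in the deposited table and 9 of the 16061 genes with enough expression to be tested. RNA was sequenced from RKO cells, a human colorectal carcinoma line, in 3 control libraries (Vector) and 3 libraries of cells overexpressing the long noncoding RNA LOC101927668 (LOC_OE), described in the design as biological replicates. The overexpressing line carried the full-length transcript in a lentiviral plenti6 plasmid and was selected with puromycin as a stable line, the controls are labelled negative control and were named Vector by the study, and the labels name no other treatment of either group. Whether each line was a clone or a pool of infected cells is not given in the sources used here. The comparison asks how expression of these genes differed between overexpressing and control cells.

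Cells build purine nucleotides on a ribose phosphate in a chain of steps that PPAT opens and ATIC closes, and they build pyrimidines by a separate route that CAD opens. Ribonucleotide reductase then turns ribonucleotides into deoxyribonucleotides, and thymidylate is made either de novo by TYMS or by salvage of thymidine by TK1. RRM2, TYMS and TK1 are known for rising as cells enter S phase, and several of these enzymes are targets of drugs used in colorectal cancer, such as fluorouracil for TYMS.

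The start regions of PPAT and PAICS lie head to head on chromosome 4. PPAT runs on the minus strand from 56435615 and PAICS on the plus strand from 56435752 in RefSeq, with 136 bases between them. The stretch between both starts is shown because both genes share it, at chr4:56435616-56435751 of GRCh38.p14, read on the plus strand from RefSeq, with its 3 GC boxes (GGGCGG) in capitals.

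PPAT-PAICS intergenic: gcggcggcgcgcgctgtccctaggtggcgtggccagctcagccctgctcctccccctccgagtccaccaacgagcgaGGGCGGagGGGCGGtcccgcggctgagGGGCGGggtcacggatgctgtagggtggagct

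The E-box CACGTG, the letters bound by MYC with MAX, was found in the start windows of PPAT, PAICS and ATIC. The windows were the RefSeq stretches from 250 bases before to 50 bases after each annotated start, and both strands were searched. PPAT and PAICS shared 1 copy, which lies in the transcribed part of PAICS, and ATIC held 2 copies on either side of its start. The E-box is in capitals in the stretches chr4:56435772-56435801, chr2:215312001-215312030 and chr2:215312076-215312105, all on the plus strand.

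PPAT-PAICS E-box: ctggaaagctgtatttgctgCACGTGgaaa
ATIC E-box 1: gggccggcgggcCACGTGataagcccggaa
ATIC E-box 2: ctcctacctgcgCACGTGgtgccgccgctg

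CCAAT (or ATTGG on the other strand), the box bound by NF-Y, was found for RRM1, RRM2, TK1, GART and CAD. RRM2 held 3 copies in 1 stretch, each followed by the same 6 letters, and GART held 3 and TK1 2. The CCAAT letters are in capitals for RRM2 at chr2:10122610-10122683 on the plus strand, TK1 at chr17:78187088-78187135 on the minus strand and GART at chr21:33542935-33543021 on the minus strand.

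RRM2 CCAAT box: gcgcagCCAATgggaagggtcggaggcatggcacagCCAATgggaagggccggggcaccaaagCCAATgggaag
TK1 CCAAT box: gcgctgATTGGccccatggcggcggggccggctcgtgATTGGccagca
GART CCAAT box: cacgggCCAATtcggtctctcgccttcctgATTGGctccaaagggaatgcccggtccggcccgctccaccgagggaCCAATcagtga

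An E2F word (TTTCCCGC, TTTGGCGC, TTTGCCGC or TTTCGCGC, on either strand) was found for TYMS and for GART. That of TYMS, read as its reverse complement, is in capitals at chr18:657608-657627 on the plus strand. The GC boxes of CAD, also read as their reverse complement, are in capitals at chr2:27217308-27217346 on the plus strand.

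TYMS E2F: acggccGCGGGAAAaggcgc
CAD GC box: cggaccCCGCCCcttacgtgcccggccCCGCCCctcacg

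Of the 9 genes, 3 held an E-box, against 8.77% of the 27305 genes with a start window, 2 held an E2F word against 3.99%, 5 held CCAAT against 39.7% and 8 held a GC box against 48.3%. PPAT and PAICS were counted as 2 genes, though they share their E-box and the 3 GC boxes between their starts. Genes with more than 1 annotated start have more than 1 window and so more chances of a match. A match is a description of the letters in the window, not a bound site.

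LOC_OE replicate 1 stood apart from the other libraries of its group. Its correlation with LOC_OE replicates 2 and 3 over all tested genes was 0.967 and 0.962, against 0.982 between those 2, and the Vector libraries correlated at 0.982 to 0.983. Results are therefore also given without it. LOC101927668 itself, listed as ENSG00000243004, was covered by 1, 1 and 0 reads in the 3 controls, against 231, 270 and 276 in LOC_OE replicates 1, 2 and 3. The epithelial genes EPCAM, KRT8, KRT18 and CDX2 were detected in every library, but the other 4 of 8 epithelial markers were at or near 0: CDH1 was listed at 0 in all 6, KRT19 had 1 read in 1 library, VIL1 had at most 2 reads, and KRT20 had at most 0.262 FPKM and 0 in every LOC_OE library. A list of 11 markers of fibroblasts, leukocytes and endothelium summed to at most 0.304 FPKM in any library.

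Expression is given as FPKM, fragments per kilobase scaled by library size. The length was that of all annotated exons of a gene merged, so orders of different genes also depend on the annotation and are approximate. Totals were 15008842 to 18410231 reads on genes. The 9 genes rested on 428 to 10413 reads per gene and library, a counting error of 0.980% to 4.83%, which covers counting only. Together they took 0.140% to 0.145% of the reads in Vector, and 0.223%, 0.185% and 0.187% in LOC_OE replicates 1, 2 and 3.

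In Vector, the mean FPKM fell in the order RRM1, TK1, PAICS, CAD, ATIC, RRM2, GART, PPAT and TYMS, from 43.2 ± 2.81 for RRM1 to 11.3 ± 0.320 for TYMS (SD, n = 3). The library ranges of neighbours in that order overlapped except for PAICS with CAD, RRM2 with GART and GART with PPAT. In LOC_OE the order was PAICS, RRM1, TK1, RRM2, ATIC, GART, CAD, PPAT and TYMS, from 76.8 ± 8.48 to 17.6 ± 9.80, and the neighbours CAD and PPAT were the pair that did not overlap.

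**Figure D1:**
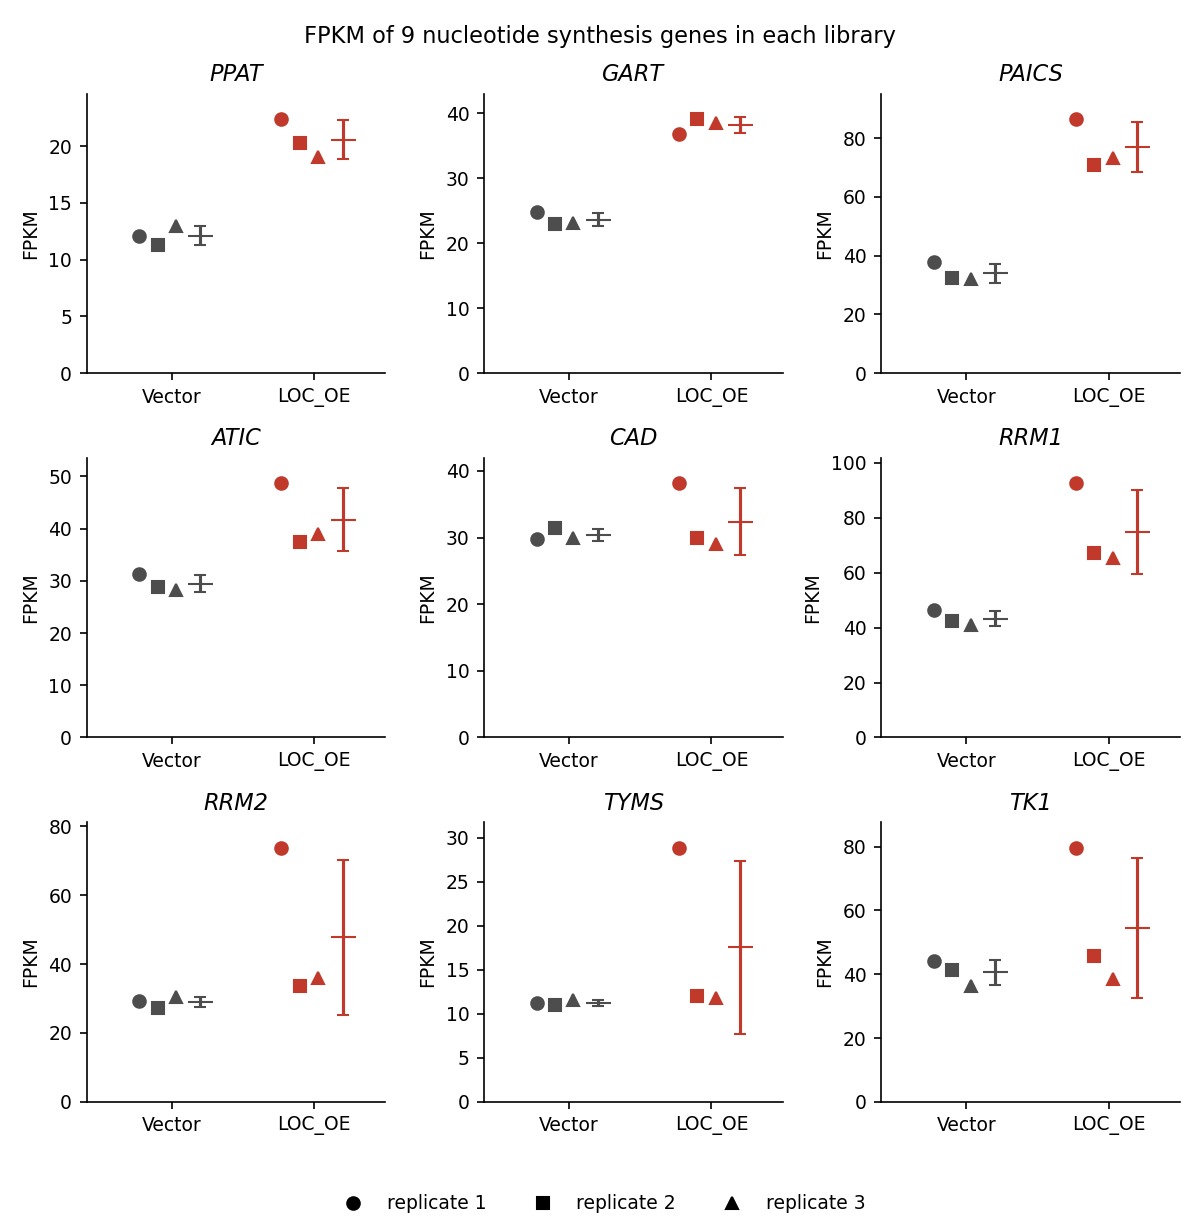
FPKM of the 9 genes in each library, with 1 panel per gene, Vector in grey and LOC_OE in red, a marker shape for each replicate, and the bar beside the points giving mean ± SD (n = 3). PPAT, GART and PAICS separate the groups with every LOC_OE library near the others, while for RRM2, TYMS and TK1 LOC_OE replicate 1 lies far above replicates 2 and 3.

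The 4 purine enzymes were higher in all 3 LOC_OE libraries. PAICS changed most, to 2.26 times its Vector mean, and PPAT and GART rose to 1.70 and 1.61 times theirs. A gene was called when its limma p-value, adjusted over all 16061 tested genes, was under 0.05 and its fold change of FPKM + 1 was at least 1.5. The fold change is given on the log2 scale of FPKM + 1, with its standard error.

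PPAT, the amidotransferase of the committed step of purine synthesis (ENSG00000128059, chromosome 4, 56393362 to 56435615), was at 12.1, 11.3 and 12.98 FPKM in Vector and 22.4, 20.3 and 19.0 FPKM in LOC_OE. Every LOC_OE library was above every Vector library, and replicate 1 was the highest. Its log2 fold change was 0.72 ± 0.095 (SE, adjusted p from limma = 0.00791), and leaving out LOC_OE replicate 1 gave 0.66 (limma adjusted p = 0.00224).

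GART, which carries several enzyme activities of the purine route in a single protein (ENSG00000159131, chromosome 21, 33503931 to 33543491), was at 24.8, 23.0 and 23.1 FPKM in Vector and 36.8, 39.1 and 38.5 FPKM in LOC_OE. Here replicate 1 was the lowest of the LOC_OE libraries, and the groups did not overlap. The log2 fold change was 0.67 ± 0.076 (SE, adjusted p from limma = 0.00627), and leaving out LOC_OE replicate 1 gave 0.69 (limma adjusted p = 0.00103). GART overlaps SON on the other strand by 874 bases, and SON was at 31.7 to 34.8 FPKM in Vector and 36.5 to 37.1 FPKM in LOC_OE.

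PAICS, which joins carboxylase and synthetase activities of the purine route (ENSG00000128050, chromosome 4, 56435741 to 56464579), was at 37.8, 32.3 and 32.0 FPKM in Vector and 86.5, 70.8 and 73.2 FPKM in LOC_OE. The lowest LOC_OE library was well above the highest Vector library. On the log2 scale the fold change was 1.15 ± 0.115 (SE, adjusted p from limma = 0.00459), and leaving out LOC_OE replicate 1 gave 1.06 (limma adjusted p = 0.00113).

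ATIC, the enzyme of the last steps to IMP (ENSG00000138363, chromosome 2, 215311817 to 215349773), was at 31.3, 28.7 and 28.3 FPKM in Vector and 48.7, 37.5 and 39.0 FPKM in LOC_OE. The groups did not overlap, with replicate 1 the highest. The log2 fold change was 0.48 ± 0.118 (SE, adjusted p from limma = 0.0355), a fold of 1.39 that passed the test but not the fold threshold. Without LOC_OE replicate 1 it was 0.37 (adjusted p from limma = 0.00681), and leaving out each of the other 5 libraries in turn ended the pass, with a limma adjusted p of up to 0.134.

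PAICS had a larger fold change than its neighbour PPAT. The ratio of PAICS to PPAT was 3.12, 2.86 and 2.47 in Vector and 3.86, 3.49 and 3.84 in LOC_OE. The ranges did not overlap, and the log2 difference of 0.41 had an exact permutation p of 0.1, two-sided, the smallest that 3 libraries against 3 can give. Without LOC_OE replicate 1 the difference was 0.39.

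CAD, which opens pyrimidine synthesis with several enzyme activities (ENSG00000084774, chromosome 2, 27217390 to 27243943), was at 29.8, 31.4 and 29.9 FPKM in Vector and 38.1, 29.96 and 29.1 FPKM in LOC_OE. Only LOC_OE replicate 1 exceeded the Vector range. On the log2 scale the fold change was 0.082 with a 95% interval from -0.20 to 0.36 (adjusted p from limma = 0.654). Without LOC_OE replicate 1 its sign turned, at -0.038.

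Of the 4 deoxyribonucleotide enzymes, RRM1 alone was called. RRM2, TYMS and TK1 had values in LOC_OE replicate 1 far above those of replicates 2 and 3, and none of them passed the test over 6 libraries.

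RRM1, the large catalytic subunit of ribonucleotide reductase (ENSG00000167325, chromosome 11, 4094707 to 4138876), was at 46.3, 42.5 and 40.9 FPKM in Vector and 92.5, 67.0 and 65.2 FPKM in LOC_OE. All LOC_OE libraries were above all Vector libraries. The log2 fold change was 0.76 ± 0.150 (SE, adjusted p from limma = 0.0196), and leaving out LOC_OE replicate 1 gave 0.60 (limma adjusted p = 0.00213).

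RRM2, the small subunit that is limiting in cycling cells (ENSG00000171848, chromosome 2, 10120698 to 10131419), was at 29.4, 27.3 and 30.3 FPKM in Vector and 73.8, 33.7 and 36.0 FPKM in LOC_OE. Replicate 1 was far above the others, and replicates 2 and 3 lay just above Vector. On the log2 scale the fold change was 0.61 with a 95% interval from -0.082 to 1.31 (adjusted p from limma = 0.179). Without LOC_OE replicate 1 it was 0.26, smaller but past the test (adjusted p from limma = 0.0246).

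TYMS, thymidylate synthase (ENSG00000176890, chromosome 18, 657604 to 673578), was at 11.2, 11.0 and 11.6 FPKM in Vector and 28.9, 12.02 and 11.8 FPKM in LOC_OE. Replicate 1 was far above all others, while replicates 2 and 3 barely passed the Vector range. The log2 fold change was 0.48 with a 95% interval from -0.30 to 1.26 (limma adjusted p = 0.332), and 0.075 without LOC_OE replicate 1 (interval -0.048 to 0.20). TYMSOS, a noncoding gene that overlaps TYMS on the other strand by 737 bases, was at 9.34, 6.95 and 8.65 FPKM in Vector and 2.82, 3.003 and 2.72 FPKM in LOC_OE, lower in every LOC_OE library. ENOSF1, a protein-coding gene, also overlaps TYMS on the other strand, by 3255 bases. Its FPKM was 4.74, 5.69 and 5.65 in Vector and 5.16, 7.09 and 7.98 in LOC_OE. Whether reads were counted by strand is not given in the sources used here, so reads of the overlaps cannot be assigned to TYMS or to the other genes.

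TK1, the cytosolic thymidine kinase (ENSG00000167900, chromosome 17, 78174075 to 78187233), was at 44.2, 41.2 and 36.4 FPKM in Vector and 79.7, 45.6 and 38.5 FPKM in LOC_OE. The groups overlapped through replicate 3. On the log2 scale the fold change was 0.35 with a 95% interval from -0.28 to 0.98 (limma adjusted p = 0.375), and 0.049 without LOC_OE replicate 1.

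**Figure D2:**
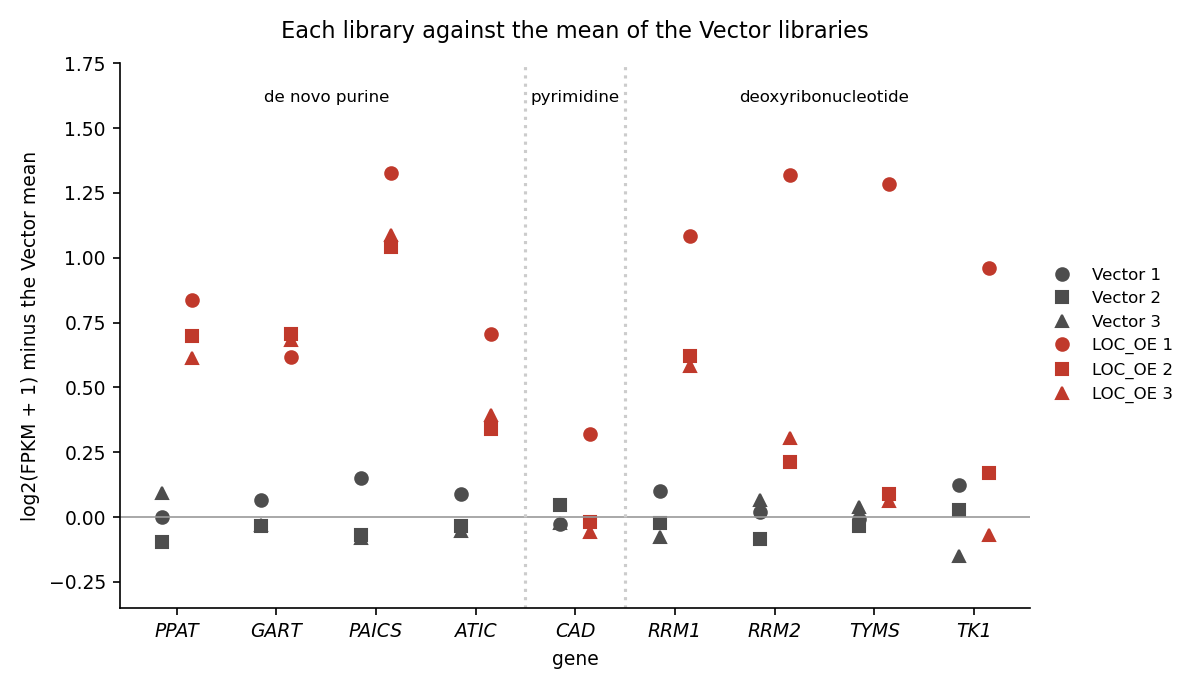
Difference of log2(FPKM + 1) from the mean of the Vector libraries (vertical axis) for each gene, with Vector libraries in grey and LOC_OE libraries in red and a marker shape per replicate. In PPAT, GART and PAICS all LOC_OE libraries lie well above 0, while in RRM2, TYMS and TK1 replicate 1 is far above replicates 2 and 3.

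The values of LOC_OE replicate 1 stood further from those of replicates 2 and 3 in the deoxyribonucleotide arm than in the purine arm, a difference that was not tested. The median log2 ratio to the Vector mean over the 4 purine enzymes was 0.77, 0.70 and 0.65 in LOC_OE replicates 1, 2 and 3. Over the 4 deoxyribonucleotide enzymes it was 1.18, 0.19 and 0.18. The median over all tested genes was 0.032, 0.013 and 0.011.

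Genes of cycling cells were also highest in LOC_OE replicate 1. A list of 12 proliferation markers summed to 404 to 426 FPKM in Vector and to 875, 463 and 457 FPKM in LOC_OE replicates 1, 2 and 3, with median log2 ratios of 0.98, 0.21 and 0.27, and no marker was at 0. Over the list, 2 of 12 passed the test with a higher value, against 10.7% of all tested genes (MCM6, 0.62, and MCM3, 0.61, both helicase subunits of replication licensing) and none with a lower one, against 9.74%. Leaving out any of the 6 libraries ended both calls, in the fit without LOC_OE replicate 1 through the fold alone. In that fit 7 of 12 were higher at an adjusted p under 0.05 from limma, against 19.4% of all tested genes, and 1 was lower, against 16.1%. The part of proliferation in the values of the 9 genes was not tested. In these bulk samples a change in the share of cycling cells and a change in RNA per cell cannot be told apart.

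**Figure D3:**
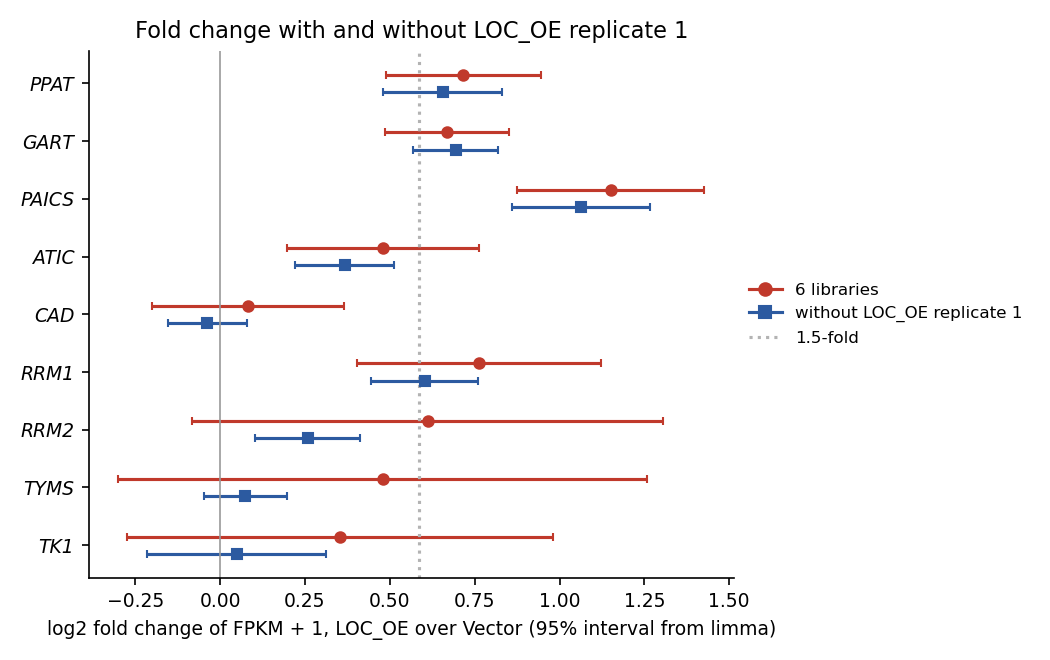
log2 fold change of FPKM + 1, LOC_OE over Vector, for each gene (horizontal axis), over 6 libraries in red circles and without LOC_OE replicate 1 in blue squares, with 95% intervals from limma and a dotted line at 1.5-fold. The intervals of PPAT, GART, PAICS, ATIC and RRM1 lie above 0 in both fits, and those of TYMS, TK1 and CAD include 0 in both.

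Counted together, 4 of the 9 genes were called higher (PPAT, GART, PAICS and RRM1), against 4.63% of all tested genes, and 0 were called lower, against 5.58%. With the fold threshold left aside, 5 of 9 were higher at an adjusted p under 0.05 from limma, against 10.7%, and 0 were lower, against 9.74%. Every LOC_OE library was above every Vector library for 7 of 9, against 24.4%. The median log2 fold change was 0.61 over the 9 and 0.019 over all tested genes.

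Without LOC_OE replicate 1, 4 of 9 were still called, the same genes, against 4.56% of all genes, 6 of 9 had an adjusted p under 0.05 from limma and a higher value, against 19.4%, and the median log2 fold change was 0.37. Leaving out a Vector library lowered the count of called genes, to 2 without replicate 2 (PAICS and GART), and to 3 without replicate 1 or replicate 3. Over all tested genes the calls fell too, from 743 higher and 896 lower to 144 and 227 without Vector replicate 2. They were 305 and 367 without Vector replicate 1, and 199 and 275 without Vector replicate 3. Genes with an adjusted p under 0.05 from limma went from 3277 to 724, 371 and 477 without Vector replicates 1, 2 and 3. RRM1 lost its call without each Vector library in turn, with a limma adjusted p of up to 0.0884, and PPAT without Vector replicate 2, at 0.0546. With every library rescaled to the same sum of FPKM, the median of all genes shifted to -0.18, PAICS alone was called, with a log2 fold change of 0.89, and CAD was negative at -0.17 while the other 8 stayed positive. RRM1, PPAT and GART then passed the test (limma adjusted p = 0.0123, 0.0118 and 0.0263) but not the fold threshold. ATIC no longer passed the test (limma adjusted p = 0.0605). In that scaling 12.7% of all calls were higher in LOC_OE, against 45.3% otherwise.

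The other enzymes of the same chemistry were taken as lists. Of 12 other enzymes of de novo purine and pyrimidine synthesis, 6 were higher at an adjusted p under 0.05 from limma, against 10.7% of all tested genes, and none was lower, against 9.74%. Their median log2 fold change was 0.41, and 0.34 without LOC_OE replicate 1. PRPS1, which makes the ribose phosphate donor that PPAT uses, was at 28.8, 26.2 and 24.2 FPKM in Vector and 51.8, 38.9 and 33.5 FPKM in LOC_OE, and was the called member of that list at 0.61, a call that held only without LOC_OE replicate 3 when each library was left out. DHODH, the mitochondrial pyrimidine enzyme after CAD, rose by 0.57 on the log2 scale, PFAS, a purine enzyme whose step lies between those of GART, by 0.51, and UMPS, the last pyrimidine enzyme to UMP, by 0.49, and all 3 lost the test without each Vector library in turn. PFAS and UMPS also lost it without LOC_OE replicate 2 and with the same sum of FPKM. PFAS lost it too with no filter on low FPKM and with the replicate block. ADSL, NME1 and NME2 share exons with readthrough genes in the annotation, and their levels are uncertain.

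In the list of 8 other enzymes of deoxyribonucleotide supply, 3 were higher at an adjusted p under 0.05 from limma, against 10.7% of all tested genes, and 1 was lower, against 9.74%. The list had a median log2 fold change of 0.64, and 0.43 without LOC_OE replicate 1. DCTD, which supplies dUMP for TYMS, was at 29.7, 28.1 and 27.8 FPKM in Vector and 57.9, 43.0 and 44.9 FPKM in LOC_OE, a log2 fold change of 0.74. CMPK1, a pyrimidine monophosphate kinase, rose by 0.55, and lost the test without each Vector library in turn and without LOC_OE replicate 2. CMPK1 also lost it with no filter on low FPKM, the same sum of FPKM and the replicate block. RRM2B, the alternative small subunit of ribonucleotide reductase that is inducible by p53, went the other way.

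RRM2B was at 34.3, 35.2 and 38.7 FPKM in Vector and 17.0, 23.2 and 22.5 FPKM in LOC_OE. All LOC_OE libraries lay below all Vector libraries, with replicate 1 the lowest. Its log2 fold change was -0.77 ± 0.133 (SE, limma adjusted p = 0.0144), and -0.64 without LOC_OE replicate 1. The calls of RRM2B and DCTD were lost without each Vector library in turn, with limma adjusted p of up to 0.0693 and 0.0724.

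The order of the small subunits by FPKM was the opposite in the groups. The ratio of RRM2 to RRM2B was 0.855, 0.774 and 0.785 in Vector and 4.35, 1.451 and 1.601 in LOC_OE. By FPKM, RRM2B was thus the higher in every Vector library and RRM2 in every LOC_OE library. The log2 difference was 1.43, and 0.92 without LOC_OE replicate 1 (exact permutation p = 0.1 over the 6 libraries, two-sided). The lengths used are of all annotated exons merged, so which subunit is higher within a group is uncertain. The difference between the groups does not depend on these lengths. RRM2 also overlaps AC007240.1 on the same strand by 8681 bases, a gene at 0.286 to 0.618 FPKM over the 6 libraries. The ratio of RRM2 to RRM1 was 0.633, 0.642 and 0.742 in Vector and 0.798, 0.503 and 0.552 in LOC_OE, a log2 difference of -0.15 with overlapping ranges (exact permutation p = 0.5, two-sided). For TYMS to TK1, de novo against salvage thymidylate, the log2 difference was 0.15 (exact permutation p = 0.6), and for TK1 to its mitochondrial counterpart TK2 it was 0.31 (exact permutation p = 0.8), turning to -0.085 without LOC_OE replicate 1.

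**Figure D4:**
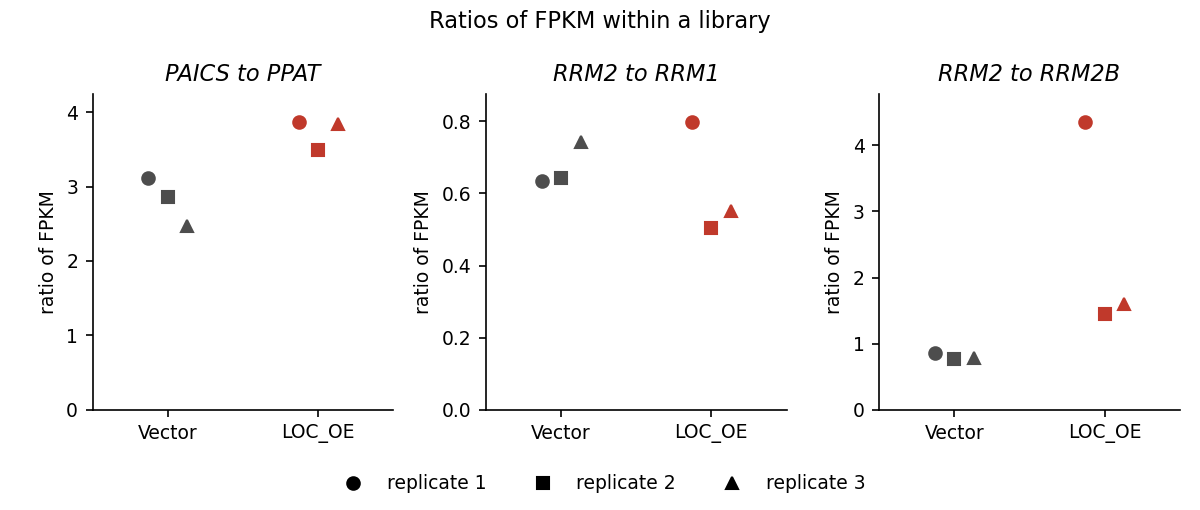
Ratio of FPKM of PAICS to PPAT, RRM2 to RRM1 and RRM2 to RRM2B within each library (vertical axes from 0), Vector in grey and LOC_OE in red, a marker shape per replicate. The groups do not overlap for PAICS to PPAT and for RRM2 to RRM2B, where Vector lies below 1 and LOC_OE above 1, and they overlap for RRM2 to RRM1.

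The folate one-carbon and serine enzymes supply the formyl and methylene groups that GART, ATIC and TYMS use. Of 12 listed, 10 were tested, 5 were higher at an adjusted p under 0.05 from limma, against 10.7% of all tested genes, and none was lower, against 9.74%. The median was 0.49, and 0.52 without LOC_OE replicate 1, where 8 were higher, against 19.4%. SHMT2, the mitochondrial serine hydroxymethyltransferase, was at 68.4, 67.1 and 64.9 FPKM in Vector and 124.7, 159.1 and 157.9 FPKM in LOC_OE, where replicate 1 was the lowest, unlike for RRM2 and TYMS. Its log2 fold change was 1.12. That of MTHFD2, a mitochondrial folate dehydrogenase, was 0.81 (test lost without each Vector library, with the same sum of FPKM and with quantile normalization). That of MTHFD1L, which releases formate, was 0.65 (test lost without Vector replicate 2), and that of PSPH, of serine synthesis, was 0.54. PSPH lost the test without replicate 2 or 3 of Vector and without replicate 2 or 3 of LOC_OE. With the same sum of FPKM, quantile normalization or the replicate block PSPH lost it too.

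Of 8 salvage enzymes, 1 passed the test with a higher value, against 10.7% of all tested genes, ADK (adenosine kinase) at 0.50, and the list median was 0.20. ADK lost the test without Vector replicate 2 or 3, without LOC_OE replicate 2 and with the same sum of FPKM. With LOC_OE replicate 1 left out, 3 of 8 were higher, against 19.4%. Of 12 enzymes of nucleotide breakdown, 9 were tested and 2 were lower, TYMP (thymidine phosphorylase) at -0.88 and ADA (adenosine deaminase) at -0.69, against 9.74% of all tested genes, and none was higher, with a list median of -0.087. Without LOC_OE replicate 1 the median turned to 0.017, with 2 higher and 3 lower, against 19.4% and 16.1%. TYMP lost the test without each Vector library, and ADA without Vector replicates 2 and 3.

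**Figure D5:**
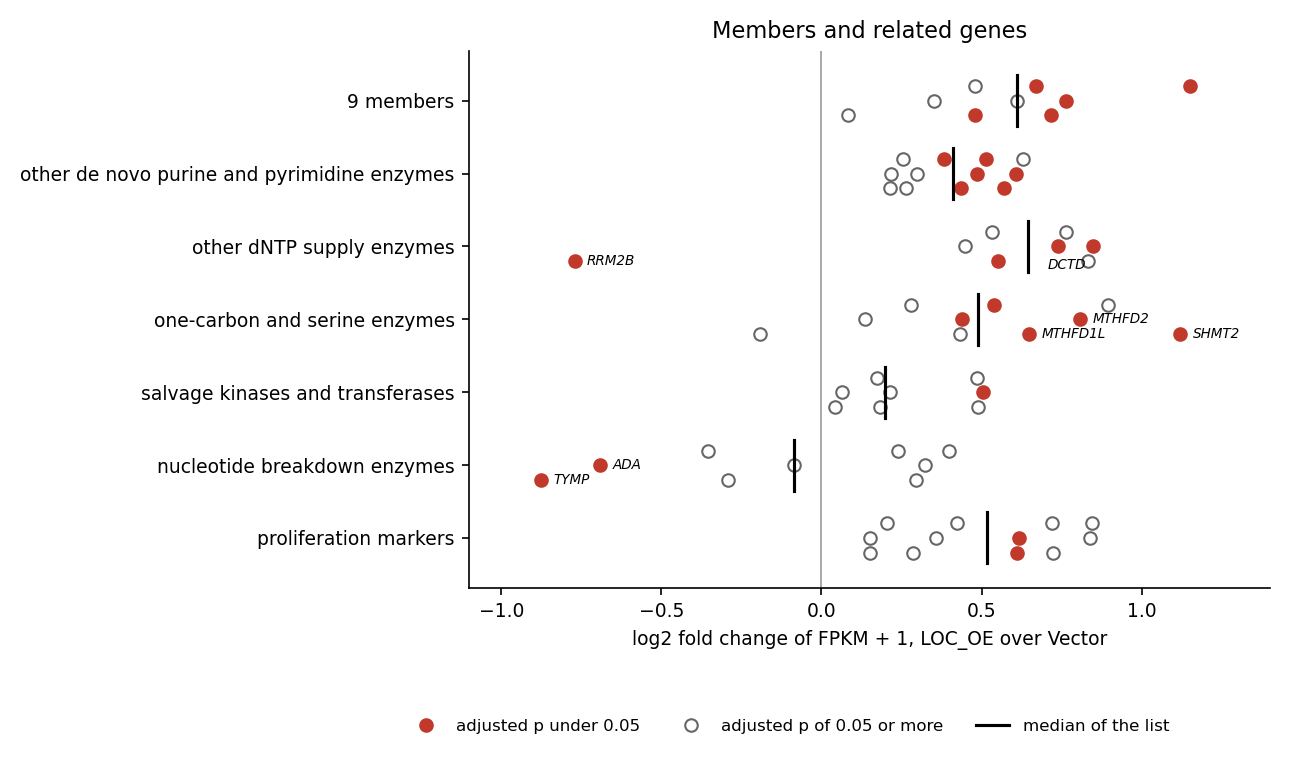
log2 fold change of FPKM + 1, LOC_OE over Vector, for each tested gene (points) of the 9 and of 6 related lists (rows), filled where the adjusted p from limma was under 0.05, with a black bar at the list median. The synthesis, salvage and proliferation lists sit to the right of 0 apart from RRM2B and 1 open point of the one-carbon list. The breakdown list has 4 points to the right of 0 and 5 to the left, and its filled points, TYMP and ADA, lie to the left.

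Of 10 factors known to act on these genes, 3 were higher at an adjusted p under 0.05 from limma, against 10.7% of all tested genes, and none was lower, against 9.74%. ATF4, which drives serine and one-carbon genes under amino acid stress, was at 86.5, 83.2 and 81.7 FPKM in Vector and 139.7, 211.6 and 208.3 FPKM in LOC_OE, a log2 fold change of 1.12 with replicate 1 again the lowest of its group. MAX, the partner of MYC, rose by 0.48 and E2F3, an activator of S phase genes, by 0.36. Over all tested genes, 3277 had an adjusted p under 0.05 from limma. Without Vector replicates 1, 2 and 3 in turn, 724, 371 and 477 did. ATF4, MAX and E2F3 lost the test without each Vector library in turn, with limma adjusted p of up to 0.0622, 0.0694 and 0.150. ATF4 also lost it with quantile normalization (limma adjusted p = 0.0665), and MAX with the same sum of FPKM (limma adjusted p = 0.110). E2F3 also lost it with the same sum of FPKM (limma adjusted p = 0.372), quantile normalization and the replicate block, and without LOC_OE replicate 2 or 3. MYC, named after its values were seen, was at 157.4, 142.6 and 133.6 FPKM in Vector and 140.2, 193.5 and 183.4 FPKM in LOC_OE, with overlapping ranges (adjusted p from limma = 0.279). LOC_OE replicate 1 was the library within the Vector range, and without it the log2 fold change of MYC went from 0.24 to 0.38 (limma adjusted p = 0.0157).

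The genes whose log2(FPKM + 1) followed the mean standardised profile of the 9 most closely over the 6 libraries, among 7293 protein-coding genes compared, were PPIL2, COPS3, SUMO3, PSMA1 and UHRF1, with Pearson correlations of 0.999 over 6 libraries that share group, library and depth. They too were highest in LOC_OE replicate 1, which follows from how they were picked and is no separate observation.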

How the data were processed

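RNA of RKO cells was analysed in 6 libraries, 3 Vector and 3 LOC_OE, grouped by their labels. The authors deposited FPKM values for 58735 genes, and HISAT2 2.0.4, StringTie 1.3.0 and hg38 are named in the submitters' processing notes without their roles. The counting of strand is not given in the sources used here. All genes matched GENCODE version 29. FPKM times merged exon length gave whole reads for 100% of values (within 0.02 reads), and the library sizes the authors had divided by followed median-of-ratios size factors.

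Limma 3.58.1 in R 4.3.3 was fitted with a variance trend to log2(FPKM + 1) for 16061 genes that reached 0.5 FPKM in 3 or more libraries, with Benjamini-Hochberg adjustment over all of them, and a fold of at least 1.5 for calls. On this scale the change of low genes is understated. Ratios used exact permutation tests. The fit was tested on simulated data. The 9 genes, the lists and the tests were chosen with earlier results of these data known. All 9 are named, and of each list at most 4 genes with an adjusted p under 0.05, by size of change, apart from 1 that is not reported here. Start windows came from RefSeq (GRCh38.p14), and Python 3.11.15 with matplotlib 3.10.9 drew the plots. Alternatives covered pseudocount, filters, scaling, variance model, array weights, voom on recovered reads, replicate block and each library left out.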

Additional observations from a re-analysis of the deposited data

How the results depend on the processing

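The count of called genes among the 9 was 4 and fell to 1 with the same sum of FPKM, to 2 with quantile normalization and to 1 at a fold of at least 2, and leaving out each library gave 2 to 4. Over all tested genes, calls were 743 higher and 896 lower, 261 and 1787 with same sum, and 599 and 826 with quantile. They were 910 and 1044 with a pseudocount of 0.1, 723 and 892 with no variance trend, and 935 and 1120 with array weights. With no filter they were 507 and 650 of 31123 genes, and with voom 1065 and 1749 of 21852. With a library left out they were 144 to 747 higher and 227 to 938 lower. For the related lists the counts of calls in either direction moved as follows. The other de novo enzymes (1 call) had 2 with a pseudocount of 0.1, voom or unadjusted p, 0 with no filter, same sum, quantile, no variance trend, array weights or a fold of at least 2, and 0 to 3 with a library left out. Deoxyribonucleotide supply (3 calls) had 5 with voom or unadjusted p, 0 at a fold of 2, and 0 to 4 with a library left out. The one-carbon list (3 calls) had 1 with same sum, quantile or a fold of 2, 5 with array weights or voom, and 1 to 5 with a library left out. Breakdown (2 calls) had 0 at a fold of 2 and 0 to 2 with a library left out. Proliferation markers (2 calls) had 0 with no filter, same sum, array weights or a fold of 2, 1 with quantile or no variance trend, 4 with unadjusted p, and 0 with each library left out in turn. Regulators (1 call) had 2 with same sum, 0 with quantile, and 0 to 1 with a library left out. The cause of these moves was not tested.

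CAD reversed with same sum (-0.17), quantile (-0.16), array weights (-0.025) and without LOC_OE replicate 1 (-0.038, with -0.038 to 0.15 over the libraries left out). TK2 reversed with same sum (-0.15) and without LOC_OE replicate 3 (-0.022, with -0.022 to 0.10), and the ratio of TK1 to TK2 without LOC_OE replicate 1 (-0.085, with -0.085 to 0.61). Over 30 named genes, 371 alternative values kept direction and side of the threshold, 102 lost the threshold, 1 gained it and 6 reversed.

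Libraries of the same replicate number had correlated deviations of 0.111, -0.034 and 0.116, so the numbers were not taken to pair them, and Vector replicate 2 did not correlate best with its own number. With the replicate block, 4 of the 9 genes were called, and calls over all genes went from 743 higher and 896 lower to 696 and 739. Precision is limited by 3 libraries a group more than by depth, since counting error of the 9 genes was at most 4.83%.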
